A study of Homo sapiens with 131 samples.

Results

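DDX6-STAMP-ID is a C-to-U editing system in HEK293T cells, an established human embryonic kidney line, and it was sampled without rapamycin and after 15, 30 and 120 min of rapamycin. The 8 libraries described here, of 131 in the whole series, are all those of this construct: 2 at 0 min, labelled DDX6-STAMP-ID-Rapa0min, and 2 at each of 15, 30 and 120 min, which were treated as 1 rapamycin arm of 6. All 8 carry the same construct, so the arms differ in rapamycin and time alone as far as the labels go. The labels give no rapamycin dose, do not describe the construct further, and do not say whether the 2 libraries of a time came from separate cultures or whether the cells are 1 clone. Poly(A) RNA was sequenced, and for each gene the authors deposited the number of reads and of edited reads. RNA level was analysed in 10656 of the 10716 genes in the tables, those with no library under 20 reads. Editing was analysed in 8332 of them, those with 10 edited reads or more over the 8 libraries.

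DDX6 is a DEAD-box RNA helicase of processing bodies (P-bodies), cytoplasmic granules of untranslated mRNA and decay factors, where it acts with LSM14A, 4E-T (EIF4ENIF1), PATL1 and the decapping enzyme DCP2. In STAMP, a fusion of an RNA-binding protein to the cytidine deaminase APOBEC1 converts C to U in the RNAs it touches, so that sequencing counts past contacts as edited reads. TRIBE does the same with the adenosine deaminase domain of ADAR2 and A-to-I conversion. In inducible designs of this kind, rapamycin joins an FKBP domain to an FRB domain and so brings the deaminase to the RNA-binding protein. Rapamycin bound to FKBP12 is also the classical inhibitor of mTORC1, a kinase complex known to promote the translation of mRNAs with a 5′ terminal oligopyrimidine (TOP) tract, which encode ribosomal proteins and translation factors, and the output of the transcription factors ATF4, HIF1 and SREBP.

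The libraries held 9300929 to 10362458 reads each over the genes of the tables and 55639 to 61752 edited reads. DDX6 RNA was high in every library, at 687 and 690.1 RPM at 0 min, 702 and 696 at 15 min, 712 and 697 at 30 min, and 709.6 and 705 at 120 min, where RPM is the gene's reads scaled to a common library total. In the HEK293T libraries of the unfused dual editors, which carry no DDX6 fusion, DDX6 stood at 215 and 221 RPM. LSM14A RNA was also high here, at 566 and 576 RPM at 0 min, 542 and 555 at 15 min, 566 and 567 at 30 min, and 592 and 596 at 120 min, against 204 and 207 RPM in the unfused dual editors. ADARB1, the gene of ADAR2, was at 978 to 1154 RPM against 632 and 636 in the unfused dual editors. The unfused dual-editor cells carry the ADAR2 domain, whose reads may count as ADARB1, so their values are not a level of the gene alone. The labels name neither LSM14A nor ADAR2 for the DDX6-STAMP-ID cells. Whether the DDX6, LSM14A and ADARB1 reads in them came from the genes themselves was not tested. DDX6 RNA did not pass the test between the arms (log2 change 0.05 ± 0.02 (SE), adjusted p = 0.184, edgeR's quasi-likelihood test). ADARB1 rose with rapamycin (log2 change 0.21 ± 0.02 (SE), adjusted p = 2.91e-04), as did FKBP1A, the gene of FKBP12, at 184 to 207 RPM (log2 change 0.12 ± 0.03 (SE), adjusted p = 0.0429, edgeR). MTOR lay at 289.9 to 313 RPM. Whether reads of an FKBP or FRB domain in the construct count towards FKBP1A or MTOR was not tested. Of 13 HEK293T markers 12 were in the tables, and of 14 markers of HCT116, the other cell line of the series, 0 were.

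The 2 libraries of a time resembled each other closely. Their reads per gene differed by no more than counting noise at 0 min (chi-square per degree of freedom 0.993, p = 0.689), at 15 min (1.003, p = 0.418) and at 120 min (1.00, p = 0.503), and by slightly more at 30 min (1.07, p = 7.41e-07). Their edited reads differed by more than counting noise at every time, with 1.39 to 1.49 per degree of freedom. They were kept as separate libraries because of the edited reads. Every p-value below, unless libraries were summed, then counts libraries that may be technical repeats as separate samples. For single times it measures the spread between the 2 libraries of a time alone. Between the arms and in the trend the spread also holds differences among the times that the fit leaves out. Because the libraries of a time may be technical repeats, each leading count is followed by the count with them summed. The sum leaves 1 sample at 0 min against 3.

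The first question was whether rapamycin raised C-to-U editing. Edited reads as a share of all reads were slightly more frequent at every time with rapamycin, most so at 30 min, in a design too small for the exact test to pass 0.05. The share was 0.552 and 0.568% at 0 min, 0.596 and 0.614% at 15 min, 0.614 and 0.6246% at 30 min, and 0.598 and 0.575% at 120 min. All 6 rapamycin libraries lay above both libraries without rapamycin, and the lowest of them, the second at 120 min, was close to the higher 0 min library. Its 95% exact binomial interval ran from 0.570 to 0.579% and that of the 0 min library from 0.564 to 0.573%. These intervals cover counting error only, and reads without molecular identifiers are not independent molecules. The means were 0.560 ± 0.0112% (SD, n = 2) without and 0.604 ± 0.0178% (n = 6) with rapamycin, a difference of 0.0431 percentage points or 1.08-fold, with an exact permutation p of 0.0714 (two-sided), the smallest that 28 splits of 8 libraries allow. The mean score over genes moved from 0.821 ± 0.0111% to 0.861 ± 0.0105%, a ratio of 1.05.

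The ratio of the arms was 1.08 in genes called as edited by a direct DDX6 fusion and 1.07 in genes not called. In the HEK293T dual-editor cells of the series, where APOBEC1 was fused to DDX6 and the ADAR2 domain to LSM14A, 67.7% of 8358 genes passed the edgeR test of C-to-U editing against the unfused editors, and 5612 of the genes tested here were called higher there. In these 5612 genes the pooled C-to-U score of the dual editor was 3.45% against 0.638% unfused, and the DDX6-STAMP-ID score went from 0.596 ± 0.00895% without to 0.643 ± 0.0201% with rapamycin (ratio 1.08, higher in 6 of 6, exact permutation p = 0.0714). In the 2667 genes not called there the score went from 0.560 ± 0.0264% to 0.601 ± 0.0180% (ratio 1.07, higher than both 0 min libraries in 5 of 6, exact permutation p = 0.143). The ratio of the first group to the second was 1.07 ± 0.0343 without and 1.07 ± 0.0179 with rapamycin (exact permutation p = 0.786). In the 500 genes with the largest dual-editor difference, 9.72% against 1.64% unfused, the score was 1.60 and 1.65% at 0 min, 1.76 and 1.75% at 15 min, 1.80 and 1.78% at 30 min, and 1.68 and 1.67% at 120 min. For these 500 genes, as over all genes, the libraries of 30 min were the highest. Those of 120 min were the lowest of the rapamycin arm in these 500 genes, and no rapamycin library overlapped the 0 min libraries.

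**Figure D1:**
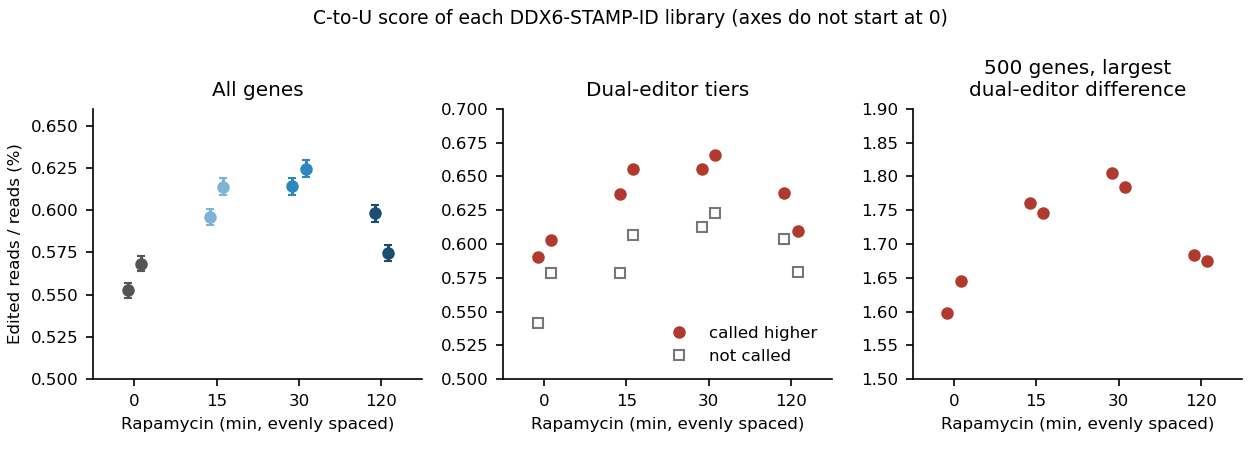
C-to-U score (edited reads over reads, percent) of each library against minutes of rapamycin, with time points evenly spaced and axes that do not start at 0: all genes with 95% exact binomial intervals (left), 5612 genes called higher by the dual editor and 2667 not called (middle), and the 500 genes with the largest dual-editor difference (right). In the left panel the rapamycin libraries sit between 0.575 and 0.6246%, above 0.552 and 0.568% at 0 min.

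Gene by gene, 1 of 8332 genes (0.012%) passed the edgeR test between the arms at an adjusted p (Benjamini-Hochberg) under 0.05, in the direction of more editing with rapamycin, and 470 had an unadjusted p under 0.05. The gene was CKB, brain-type creatine kinase, which buffers ATP and is abundant in HEK293T cells (chromosome 14, 103519667 to 103522830, GRCh38.p14). No edited read was seen among 9527 and 9170 CKB reads at 0 min, against 61 of 10144 and 29 of 9610 at 15 min, 30 of 9299 and 17 of 8822 at 30 min, and 27 of 9349 and 11 of 9965 at 120 min. The rapamycin arm thus pooled 0.306%, at least 19.1-fold higher than the limit of 0.0160% that a count of 0 allows over the 0 min libraries together (3 counts). The adjusted p was 6.19e-04, or 7.91e-04 relative to library-wide editing, and 3.69e-04 with the libraries of each time summed. That fit sets 1 summed sample at 0 min against 3, so that its spread comes from the rapamycin times alone. Without either 0 min library CKB was no longer called (adjusted p = 0.14 and 0.288), nor was it by limma on log2(score + 0.1) (adjusted p = 0.603). CKB RNA itself was higher with rapamycin (log2 change 0.11 ± 0.03 (SE), adjusted p = 0.025). In the dual editor CKB was edited at 1.70%, against 0.306% with the unfused editors. Summed in that way 4 genes were called, all higher, with no measure of the spread at 0 min.

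The gene next in line, named after its values were seen, was MORF4L2, a chromatin protein gene, with 1 edited read of 5661 and 0 of 5434 at 0 min and 7 to 20 edited reads of 5147 to 5841 in each rapamycin library; it did not pass (log2 change 4.21, adjusted p = 0.0827). Below it stood genes of higher scores that did not pass either. TRMT13, a tRNA methyltransferase gene, had C-to-U scores of 0.323 and 0.158% at 0 min, 1.13 and 2.73 at 15 min, 1.495 and 1.17 at 30 min, and 2.26 and 1.88 at 120 min (log2 change 2.78 ± 0.65 (SE), adjusted p = 0.234). EIF2AK4, which encodes the amino acid sensing kinase GCN2, had scores of 0.545 and 0.232% at 0 min, 1.93 and 1.52 at 15 min, 2.09 and 1.60 at 30 min, and 1.25 and 1.57 at 120 min (log2 change 2.05 ± 0.48 (SE), adjusted p = 0.234). In both genes every rapamycin library lay above both 0 min libraries, and the groups did not overlap. RNF128, a ubiquitin ligase gene, and PLPPR2 had the same layout, with 3.13 ± 0.752% against 0.219 ± 0.310% and 1.39 ± 0.435% against 0.1004 ± 0.142% (adjusted p = 0.36 for each by edgeR).

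In the other direction no gene passed. UROS, an enzyme gene of haem synthesis, had scores of 0.995 and 1.09% at 0 min, 0.265 and 0 at 15 min, 0.143 and 0.299 at 30 min, and 0.441 and 0.265 at 120 min (log2 change -2.09 ± 0.63 (SE), adjusted p = 0.549). GMIP, WARS1 (tryptophanyl-tRNA synthetase) and SLC35G2 followed, with adjusted p of 0.68, 0.68 and 0.78 in the edgeR test. All 4 had their 2 highest scores at 0 min except WARS1, whose first 30 min library, at 1.11%, lay between its 0 min libraries at 1.14 and 1.00%. Genes whose 6 rapamycin libraries all lay above or all below both 0 min libraries made up 7.38% of those tested, 420 above and 195 below.

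**Figure D2:**
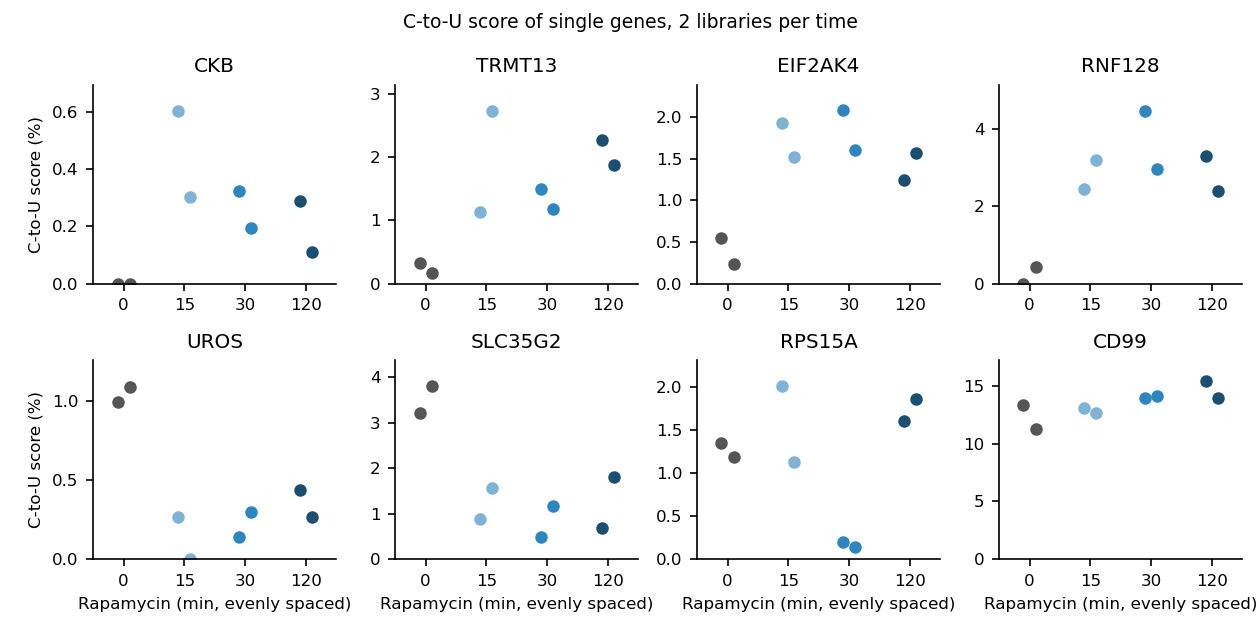
C-to-U score (percent) of 8 genes in the 2 libraries of each time, with time points evenly spaced; each point is 1 library. CKB, TRMT13, EIF2AK4 and RNF128 were lowest at 0 min, UROS and SLC35G2 highest; RPS15A was low at 30 min alone, and CD99 stayed between 11.2 and 15.5%.

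The time course added no further gene. In the trend over minutes 0 of 8332 genes (0.0%) were called, with 401 at an unadjusted p under 0.05, and 0 when the libraries of each time were summed. Against 0 min, CKB alone was called at 15 min, at 30 min and at 120 min (0.012% each), the 3 comparisons sharing their 0 min libraries. RPS15A, a ribosomal protein gene, came nearest to the threshold at 30 min: its scores were 1.35 and 1.19% at 0 min, 2.00 and 1.13 at 15 min, 0.203 and 0.143 at 30 min, and 1.60 and 1.85 at 120 min (log2 change -2.82 ± 0.57 (SE), adjusted p = 0.0881). Both libraries of 30 min were low and all the others high, so that the mean of the rapamycin arm, 1.16%, was near that of 0 min, 1.27%. COX6A1, a subunit gene of cytochrome c oxidase, had a similar course, with 1.47 and 1.55% at 30 min and 4.39 to 6.22% in the other libraries (adjusted p = 0.431 in the edgeR test).

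The same pair of genes headed the scores with and without rapamycin. CD99, a cell surface glycoprotein gene, led in both arms with scores of 13.4 and 11.2% at 0 min, 13.1 and 12.7 at 15 min, 14.0 and 14.2 at 30 min, and 15.5 and 14.0 at 120 min (log2 change 0.17 ± 0.16 (SE), adjusted p = 0.997). NDUFB5, a subunit gene of respiratory complex I, came second in both arms at 10.1 ± 5.40% without and 11.8 ± 3.36% with rapamycin. Where no library had under 100 reads, POLR2K, HIGD1A, SH3BGRL, TSPAN7, B2M and NUP62CL followed in the rapamycin arm, with means of 5.92 to 8.20%. SH3BGRL and POLR2K were also among the 8 highest without rapamycin. Across 8332 genes the mean scores of the arms had a rank correlation of 0.826, against 0.601 between the 2 libraries of 0 min. The first value compares means over 6 and 2 libraries and the second compares single libraries, so they are not like for like. In both arms the scores ranked more like those of the unfused dual editors than like those of the fused ones (8313 genes). The rho was 0.687 with unfused and 0.537 with fused under rapamycin, and 0.634 and 0.503 at 0 min. The log2 change with rapamycin had a rank correlation of -0.00483 with the log2 change from unfused to fused (7558 genes). These are descriptions across genes, which are not independent replicates and share their read depth.

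Of the lists of genes examined, only the HEK293T markers held a member called for editing, CKB. Of 22 P-body and decapping factors tested for editing 13 had a log2 change above 0, with a median of 0.31, against 58.3% and a median of 0.12 over all genes. Of 24 mTOR pathway genes 20 were above 0 (median 0.30) and of 24 mitotic factors 6 (median -0.21), and none of these members passed. Reads counted as DDX6 had scores of 0.0848 and 0.118% at 0 min, 0.179 and 0.162% at 15 min, 0.361 and 0.369% at 30 min, and 0.288 and 0.0291% at 120 min (log2 change 1.17 ± 0.54 (SE), adjusted p = 0.87 by edgeR). Whether they came from the gene itself or from the construct was not tested.

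RNA levels moved in more genes, by small amounts. Between the arms 4.47% of 10656 genes passed the edgeR test, 239 (2.24%) higher and 237 (2.22%) lower with rapamycin. Their median absolute log2 change was 0.18. With the libraries of each time summed 0 genes passed, while 1028 had an unadjusted p under 0.05, and without the first or the second 0 min library 1 and 18 genes passed. In the trend over minutes 1129 genes (10.6%) passed, 487 rising and 642 falling, and 251 of them still passed with the libraries of each time summed, 53 rising and 198 falling. Without the first or the second 120 min library 330 and 313 genes passed the trend. Scaled by total counts alone, in place of TMM (edgeR's trimmed mean of M-values), the calls were 150 higher and 342 lower between the arms and 314 rising and 793 falling in the trend. Against 0 min alone, 973 genes (9.13%) were called at 15 min, 1172 (11.0%) at 30 min and 2366 (22.2%) at 120 min. With 1 sample a time, these comparisons would have no test. Higher calls made up 4.29% of all genes at 15 min and 5.56% at 30 min, and lower calls 4.84 and 5.43%. At the 3 times 47.0, 50.6 and 49.3% of the calls were higher, and 32.1, 32.5 and 32.5% when scaled by total counts. Genes whose arms did not overlap made up 22.1%, 780 with every rapamycin library above and 1574 with every one below. In bulk RNA a lower level may mean less RNA per cell or fewer cells with the RNA, which cannot be told apart.

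The stress response genes DDIT4 and HMOX1 had the largest falls between the arms among the 8 named by rule for their fall, and both were lower by 15 min. DDIT4 (REDD1), a stress-induced inhibitor of mTORC1, fell throughout (chromosome 10, 72273924 to 72276036, GRCh38.p14). It stood at 76.5 and 74.9 RPM at 0 min, 54.2 and 53.1 at 15 min, 45.8 and 43.8 at 30 min, and 34.1 and 34.8 at 120 min. The rapamycin libraries did not overlap those of 0 min, the mean ratio was 0.585, and both edgeR tests passed, between the arms (log2 change -0.75 ± 0.12 (SE), adjusted p = 0.00246) and in the trend (log2 change per hour -0.49 ± 0.06 (SE), adjusted p = 3.47e-06). HMOX1, the inducible haem oxygenase of the NRF2 response, stood at 67.1 and 64.7 RPM at 0 min, 45.4 and 34.6 at 15 min, 40.4 and 44.2 at 30 min, and 37.7 and 36.5 at 120 min. It was lower from 15 min on, with no overlap between the arms (log2 change -0.71 ± 0.08 (SE), adjusted p = 1.57e-04). SLC7A11, the cystine transporter gene of the ATF4 and NRF2 responses, had its lowest mean at 15 min, at 60.6 and 59.4 RPM at 0 min, 41.5 and 36.6 at 15 min, 46.9 and 42.5 at 30 min, and 44.7 and 44.6 at 120 min (log2 change -0.47 ± 0.07 (SE), adjusted p = 0.00175).

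Listed targets of the mTORC1-linked factors SREBP, HIF1 and ATF4 moved in both directions. SREBF1, the gene of SREBP1, stood at 57.7 and 58.5 RPM at 0 min, 44.1 and 41.7 at 15 min, 41.8 and 45.1 at 30 min, and 47.0 and 44.9 at 120 min (log2 change -0.38 ± 0.06 (SE), adjusted p = 0.00175). VEGFA, the angiogenic growth factor and HIF1 target, stood at 71.6 and 69.9 RPM at 0 min, 54.1 and 56.8 at 15 min, 58.8 and 52.6 at 30 min, and 52.9 and 52.9 at 120 min (log2 change -0.35 ± 0.05 (SE), adjusted p = 0.00175). Both were lower in every rapamycin library than in either 0 min library. Of 38 genes of the unfolded protein response and ATF4 list 1 rose and 5 fell between the arms, against 2.24% and 2.22% of all genes, with a median log2 change of -0.04 against -0.00289 over all genes. Of 27 genes of glycolysis and HIF1 6 rose, among them LDHA, lactate dehydrogenase A (log2 change 0.12, adjusted p = 0.00308 by edgeR), and VEGFA alone fell (2.24% and 2.22% of all genes). Of 32 cholesterol synthesis and SREBP target genes SREBF1 alone passed between the arms. At 15 min 6 of the 32 were higher and 2 lower, against 4.29% and 4.84% of all genes. In the trend over minutes 1 rose and 4 fell, against 4.57% and 6.02% of all genes. Among the falls was MSMO1, of sterol synthesis (log2 change per hour -0.23 ± 0.03 (SE), adjusted p = 3.50e-05, edgeR). It stood at 57.2 and 60.5 RPM at 0 min, 59.4 and 63.0 at 15 min, 57.6 and 59.0 at 30 min, and 43.8 and 43.4 at 120 min.

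Some messages of the translation machinery rose with rapamycin and none fell between the arms. Of 78 cytosolic ribosomal protein genes 9 rose and 0 fell between the arms, against 2.24% and 2.22% of all genes, and 72 had a log2 change above 0 (median 0.06, against -0.00289 over all genes). Of 40 translation factors 6 rose, of 22 other TOP mRNAs 5 rose, and none fell, against the same shares of all genes. In the trend over minutes 19, 11 and 11 of them rose and 0 fell, against 4.57% and 6.02% of all genes, and at 120 min against 0 min 46 (of 78), 19 and 17 rose, against 10.9% of all genes. At 15 and 30 min 20 and 34 ribosomal protein genes rose and 3 and 2 fell, against 4.29 and 5.56% of all genes rising and 4.84 and 5.43% falling. The 78 ribosomal protein genes together held 42557 and 42674 RPM at 0 min. Small changes pass more easily at high counts, so the share over all genes is not a background of matched level. Over all genes the trend had a rank correlation of 0.218 with RNA level at 0 min. Ribosomal protein genes have near-identical pseudogene copies, and how reads shared with them were counted is not given, so their values are uncertain by that share. NPM1, the nucleolar chaperone of ribosome assembly, stood at 1507 and 1503 RPM at 0 min, 1612 and 1619 at 15 min, 1618 and 1655 at 30 min, and 1668 and 1664 at 120 min (log2 change 0.14 ± 0.02 (SE), adjusted p = 0.00175). EEF2, elongation factor 2 and a TOP mRNA, stood at 3283 and 3300.0 RPM at 0 min, 3309 and 3359 at 15 min, 3341 and 3328 at 30 min, and 3621 and 3610.0 at 120 min (log2 change per hour 0.08 ± 0.01 (SE), adjusted p = 1.38e-05). RPLP0, of the ribosomal stalk, had a log2 change of 0.11 (adjusted p = 0.0232) and RPL15 a trend of 0.07 per hour (adjusted p = 6.46e-04, edgeR). None of the members of these 3 lists passed either test with the libraries of each time summed. Scaled by total counts alone, the ribosomal protein counts were 5 between the arms and 14 in the trend, with 0 falling.

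**Figure D3:**
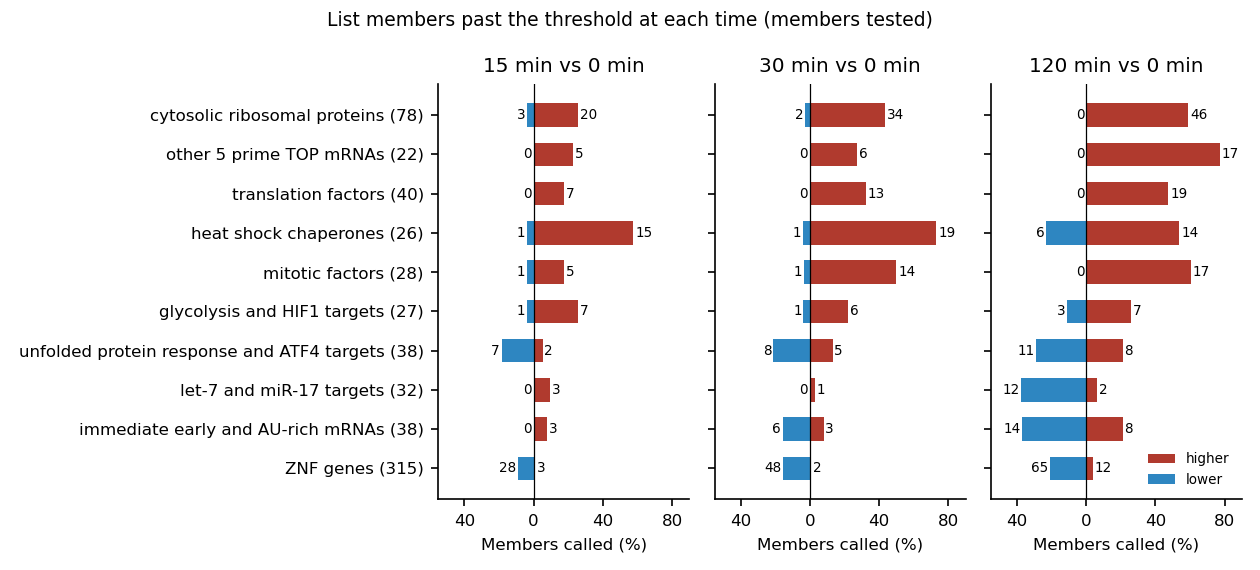
Percentage of the members of 10 lists that passed the edgeR test against 0 min at 15, 30 and 120 min, higher to the right in red and lower to the left in blue, with the counts printed and the number tested in parentheses; the 3 comparisons share the 0 min libraries. Heat shock chaperones were called higher in 15, 19 and 14 of 26 and lower in 1, 1 and 6, and ZNF genes lower in 28, 48 and 65 of 315.

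Heat shock chaperones were mostly higher early, and some were lower late. Of 26 tested, 15 were higher and 1 lower at 15 min, 19 and 1 at 30 min, and 14 and 6 at 120 min. Over all genes 4.29% were higher and 4.84% lower at 15 min, 5.56 and 5.43% at 30 min, and 10.9 and 11.3% at 120 min. HSPA1B, an inducible HSP70 gene on chromosome 6, and HSPB1, the small heat shock protein HSP27 on chromosome 7, are shown with the 250 bases before their start (RefSeq, GRCh38.p14, both on the plus strand; chr6:31827488-31827737 and chr7:76302423-76302672), because both hold the core of the heat shock element and yet had different courses. Capitals mark GAANNTTC, which is its own reverse complement. It was found in the promoter windows of 7 of 27 listed chaperones (DNAJA1, DNAJB6, HSPA1A, HSPA1B, HSPA8, HSPB1 and TCP1) and in 5.85% of 27305 windows of that length. A match describes the letters and is no evidence of binding.
HSPA1B: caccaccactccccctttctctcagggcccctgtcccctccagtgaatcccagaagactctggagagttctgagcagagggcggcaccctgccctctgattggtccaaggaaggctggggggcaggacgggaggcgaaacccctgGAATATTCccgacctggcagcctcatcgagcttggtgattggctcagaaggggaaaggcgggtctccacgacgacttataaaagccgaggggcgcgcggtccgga
HSPB1: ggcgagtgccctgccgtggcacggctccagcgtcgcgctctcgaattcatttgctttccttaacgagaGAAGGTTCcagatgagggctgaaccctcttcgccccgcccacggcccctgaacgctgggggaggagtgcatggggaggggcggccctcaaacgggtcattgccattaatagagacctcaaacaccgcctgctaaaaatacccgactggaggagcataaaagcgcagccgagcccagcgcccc

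HSPA1B rose by 15 min and then fell far below its starting level. It stood at 436 and 421 RPM at 0 min, 586 and 583 at 15 min, 599 and 590.4 at 30 min, and 182 and 175 at 120 min. The log2 changes were 0.46 at 15 min (adjusted p = 3.24e-82), 0.49 at 30 min (adjusted p = 6.45e-90) and -1.24 at 120 min (adjusted p = 9.10e-275, edgeR), and the trend over minutes was -0.78 per hour (adjusted p = 3.76e-06). The arm as a whole did not pass, with overlapping values. HSPA1A, its near-identical copy, whose reads cannot be cleanly separated from it, stood at 4.27 and 3.46 RPM at 0 min and at 1.29 and 1.23 at 120 min, under the read minimum there, so that the HSPA1B values are uncertain by the share of reads assigned to HSPA1A. DNAJB1, the HSP40 partner of HSP70, stood at 167 and 158 RPM at 0 min, 174 and 177 at 15 min, 175 and 178 at 30 min, and 99.3 and 102 at 120 min. Its log2 changes were 0.13, 0.14 and -0.66 at 15, 30 and 120 min (adjusted p = 0.00785, 0.00254 and 2.59e-54, edgeR), with a falling trend (log2 change per hour -0.38 ± 0.04 (SE), adjusted p = 2.29e-07). Without the 120 min libraries the trends of HSPA1B and DNAJB1 were above 0, at 0.97 and 0.28 per hour.

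HSPB1 was lower at every time, at 75.4 and 77.2 RPM at 0 min, 60.1 and 64.1 at 15 min, 61.0 and 58.4 at 30 min, and 53.8 and 60.2 at 120 min (log2 change -0.33 ± 0.05 (SE), adjusted p = 0.00266). It was the 1 of 26 chaperones to fall between the arms, and 8 rose, 5 of them subunits of the TRiC chaperonin (2.22% and 2.24% of all genes). HSP90AA1, the stress-inducible HSP90, and CCT2, of the TRiC chaperonin, were higher in all 6 rapamycin libraries than in both 0 min libraries, HSP90AA1 by a log2 change of 0.17 (adjusted p = 1.45e-04) and CCT2 by 0.18 (adjusted p = 0.00138, edgeR). With the libraries of each time summed no chaperone passed between the arms, and in the trend 0 rose and 3 fell.

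**Figure D4:**
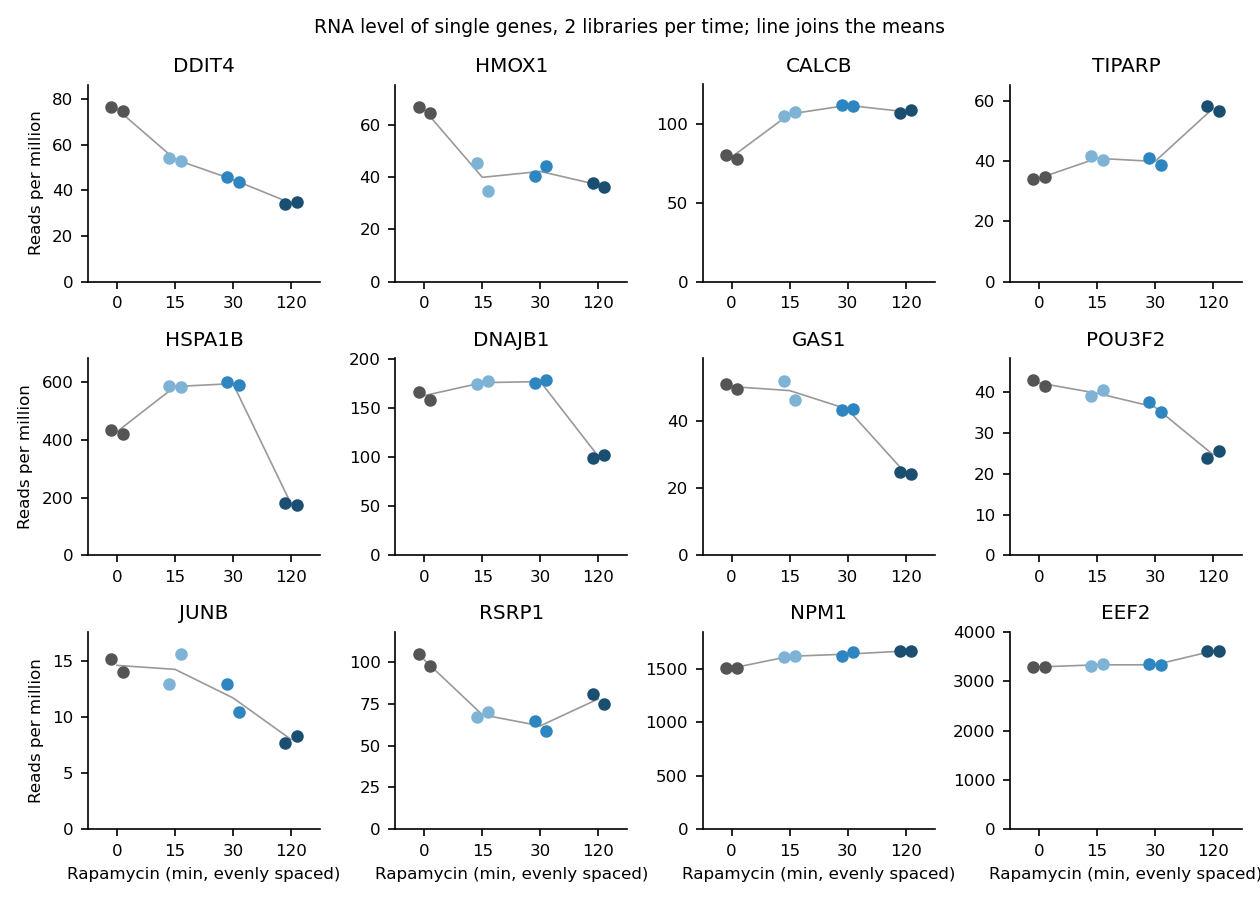
RNA level (RPM) of 12 genes in the 2 libraries of each time, with time points evenly spaced and a line through the means. DDIT4 fell from 76.5 and 74.9 to 34.1 and 34.8, HSPA1B rose to between 583 and 599 before falling to 182 and 175, and GAS1 was low at 120 min alone.

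Of 38 immediate early and AU-rich mRNAs 0 fell at 15 min, 6 at 30 min and 14 at 120 min, against 4.84, 5.43 and 11.3% of all genes, so that calls grew with time over all genes too. Of the 38, 3, 3 and 8 rose, against 4.29, 5.56 and 10.9%. The list holds messages known to be short-lived. In the trend 11 fell and 6 rose, against 6.02% and 4.57% of all genes, and 7 fell with the libraries summed. JUNB, an AP-1 subunit, stood at 15.2 and 14.0 RPM at 0 min, 12.9 and 15.6 at 15 min, 12.9 and 10.5 at 30 min, and 7.74 and 8.29 at 120 min (log2 change per hour -0.43 ± 0.07 (SE), adjusted p = 1.26e-04). BTG2, an antiproliferative cofactor of the CCR4-NOT deadenylase, stood at 42.4 and 37.7 RPM at 0 min, 42.2 and 43.7 at 15 min, 36.8 and 38.8 at 30 min, and 23.9 and 23.9 at 120 min (log2 change per hour -0.40 ± 0.05 (SE), adjusted p = 9.95e-07). In both genes the 120 min libraries were the lowest and those of 15 min overlapped 0 min. GAS1, a growth arrest and Hedgehog coreceptor gene, fell from 51.1 and 49.5 RPM at 0 min to 24.7 and 24.2 at 120 min (log2 change -1.01, adjusted p = 1.90e-34), and RGS16, a regulator of G-protein signalling, and FZD8, a Wnt receptor, fell with log2 changes of -0.93 and -0.82 (adjusted p = 1.54e-14 and 4.30e-15, edgeR).

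POU3F2, a neural POU-domain factor, stood at 43.0 and 41.6 RPM at 0 min, 39.0 and 40.6 at 15 min, 37.7 and 35.1 at 30 min, and 24.0 and 25.5 at 120 min. Its 120 min libraries lay well below the rest (log2 change per hour -0.38 ± 0.04 (SE), adjusted p = 2.41e-07). By the rule for named genes the other largest falls were DDIT4, NAB2, PKDCC, MEX3B, IRX3, RGMA and ZBTB7B, with trends of -0.49 to -0.37 per hour. With POU3F2 all 8 still passed with the libraries of each time summed, where their adjusted p ran from 0.00065 to 0.00762. Of 315 zinc finger genes named ZNF and a number, 2 rose and 17 fell between the arms (71 with a log2 change above 0, median -0.08), against 2.24% and 2.22% of all genes. In the trend 11 rose and 38 fell, against 4.57% and 6.02% of all genes, or 1 and 14 with the libraries summed. ZNF594 stood at 29.2 and 28.5 RPM at 0 min, 23.9 and 22.9 at 15 min, 25.3 and 21.4 at 30 min, and 16.7 and 16.4 at 120 min. It was lowest at 120 min (log2 change per hour -0.35 ± 0.05 (SE), adjusted p = 3.31e-05). Of 32 listed let-7 and miR-17 targets 1 rose and 11 fell in the trend, against 4.57% and 6.02% of all genes, or 0 and 2 with the libraries summed. One that fell was CCND2, cyclin D2 (log2 change per hour -0.18 ± 0.03 (SE), adjusted p = 4.87e-04, edgeR). Of 15 miRNA silencing factors DGCR8 rose and AGO1, TNRC6A and TRIM71 fell in the trend, with the same shares over all genes. DGCR8, of the nuclear microprocessor, stood at 134 and 132 RPM at 0 min, 127 and 116 at 15 min, 116 and 118 at 30 min, and 145 and 146 at 120 min, and without the 120 min libraries its trend was -0.33 per hour. TNRC6A, a partner of Argonaute, had log2 change per hour -0.14 ± 0.02 (SE), adjusted p = 7.95e-06 (edgeR). The HEK293T marker ZIC2, a developmental transcription factor, fell too, with a trend of -0.16 per hour (adjusted p = 5.55e-05, edgeR).

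In the trend the 8 rises named by rule were each smaller than the 8 falls. TIPARP, a mono-ADP-ribosyltransferase of the aryl hydrocarbon receptor pathway, stood at 34.0 and 34.8 RPM at 0 min, 41.7 and 40.4 at 15 min, 41.0 and 38.9 at 30 min, and 58.4 and 56.8 at 120 min. Every rapamycin library was above both 0 min libraries (log2 change per hour 0.35 ± 0.03 (SE), adjusted p = 1.65e-07), and the trend passed with the libraries summed (adjusted p = 0.000674). Of 3 other named rises examined with the libraries summed, ING3, a reader of histone marks, passed (adjusted p = 0.0405); OSER1 and DERL3 did not pass (0.0501 and 0.12). CALCB, a calcitonin gene-related peptide, had the largest fitted rise between the arms among the 8 named by rule for their rise, at 80.1 and 78.2 RPM at 0 min, 105 and 108 at 15 min, 112 and 112 at 30 min, and 107 and 109 at 120 min. It was higher from 15 min on, with no overlap between the arms (log2 change 0.48 ± 0.04 (SE), adjusted p = 9.53e-06). ID2, an inhibitor of helix-loop-helix factors, EMILIN2, ZFPM1 and SHB rose as well, by log2 changes of 0.31, 0.46, 0.46 and 0.35 (adjusted p from 6.29e-04 to 0.0251, edgeR). With the libraries of each time summed, 30 genes named for the arm had adjusted p from 0.133 to 0.5.

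Some genes had their lowest values at 30 min and higher ones at 120 min. RSRP1, an arginine and serine rich protein gene, stood at 105 and 97.7 RPM at 0 min, 67.1 and 70.0 at 15 min, 64.9 and 58.9 at 30 min, and 81.2 and 74.8 at 120 min (log2 change -0.53 ± 0.08 (SE), adjusted p = 0.00175). CLK1, a kinase of splicing factors, stood at 88.1 and 91.9 RPM at 0 min, 69.9 and 68.8 at 15 min, 62.1 and 59.4 at 30 min, and 112 and 107 at 120 min. It had log2 changes of -0.55 at 30 min and 0.31 at 120 min (adjusted p = 1.64e-21 and 1.95e-09, edgeR). CLK1 thus passed the test on both sides of its starting level. PNRC1 and PAQR6 rose at 120 min by log2 changes of 0.50 and 0.62 (adjusted p = 1.70e-11 and 3.54e-07, edgeR). EIF4A1, the helicase of the cap-binding complex eIF4F, had its high values at 30 min alone, 31.3 and 28.9 RPM against 18.1 to 21.9 in the other libraries (log2 change 0.65, adjusted p = 3.36e-09, edgeR). How reads shared with overlapping genes were counted is not given, so these values may hold only a part of the EIF4A1 reads.

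Calls in the P-body machinery were near the shares over all genes. Of 22 P-body and decapping factors 0 passed between the arms, against 2.24% of all genes rising and 2.22% falling. In the trend LSM14A rose and DCP2 and EIF4ENIF1 fell, against 4.57% and 6.02% of all genes. At 120 min against 0 min 2 were higher and 3 lower, against 10.9% and 11.3%. LSM14A RNA lay above its level in the unfused dual-editor cells, and whether its reads came from the gene itself was not tested. DCP2, the catalytic decapping enzyme, stood at 177 and 177 RPM at 0 min, 181 and 188 at 15 min, 181 and 177 at 30 min, and 165 and 149 at 120 min. It was lowest at 120 min (log2 change per hour -0.10 ± 0.02 (SE), adjusted p = 0.00454). EIF4ENIF1 (4E-T), which bridges eIF4E and DDX6, had a trend of -0.12 per hour (adjusted p = 0.0192) and LSM14A of 0.05 (adjusted p = 0.0182, edgeR). None of the 3 passed with the libraries of each time summed, and without the 120 min libraries the DCP2 and EIF4ENIF1 trends were above 0. Of 24 CCR4-NOT and PAN2-PAN3 deadenylation genes 3 rose and 3 fell in the trend, against 4.57% and 6.02% of all genes. The falls were TOB1, TOB2 and BTG2, adaptors of the deadenylase. TOB1 stood at 50.7 and 53.7 RPM at 0 min, 45.3 and 51.8 at 15 min, 41.9 and 42.6 at 30 min, and 34.7 and 38.5 at 120 min (log2 change per hour -0.23 ± 0.04 (SE), adjusted p = 3.48e-04). DCP1A, EDC3, EDC4, PATL1 and XRN1 had log2 changes between the arms of -0.10 to 0.09, and none passed.

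The experiment most like this one, LSM14A-TRIBE-ID at the same 4 times in the same cell line, has its own 0 min libraries. Its A-to-I share, edited reads over reads, was 0.864 and 0.780% at 0 min, 1.49 and 1.25% at 15 min, 2.29 and 2.05% at 30 min, and 6.15 and 5.17% at 120 min. Both libraries of each time lay above those of the time before, with 780 of 9063 genes (8.61%) called higher and 0 lower in the rapamycin arm. The fit behind this count pooled the times and had no block for the paired libraries. The fold change of the score in the rapamycin arm differed between the constructs in 602 of 7815 genes (7.70%; edgeR interaction), in 601 of them larger for LSM14A-TRIBE-ID, with a median difference of 1.92 on the log2 scale. With a block for the paired LSM14A-TRIBE-ID libraries 396 passed, all larger there, and without single libraries 0 to 1784 did. The count was 0 without either LSM14A-TRIBE-ID library of 0 min, and 3 and 41 without the first or second DDX6-STAMP-ID library of 0 min. The editors convert different bases, so that their scores are not on 1 scale.

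In RNA level no gene passed the test of a difference between the constructs in the rapamycin arm (0 of 10325, 0.0%, by edgeR, with 1121 at an unadjusted p under 0.05). This does not show similar responses. In LSM14A-TRIBE-ID alone 0 of 10648 genes passed between the arms. The reads of its 2 libraries of a time differed by 5.84 to 7.20 per degree of freedom. The rank correlation between the constructs was -0.0649 for the change between the arms and 0.123 for the trend (10325 genes). In the test between the constructs with the block for the paired libraries 3 genes passed, 2 higher (0.0194%) and 1 lower (0.00969%). With that block the trends over minutes differed in 685 genes (6.63%), 448 (4.34%) with the higher trend in LSM14A-TRIBE-ID and 237 (2.30%) with the lower, and with no block in 280. Without single libraries 114 to 1457 did, the lowest without the first LSM14A-TRIBE-ID library of 120 min. In LSM14A-TRIBE-ID itself 6.92% of genes passed the trend, 3.47% rising. Of 311 ZNF genes 50 had a higher trend there than here and 0 a lower one. POU3F2 stood at 45.4 and 42.2 RPM at 0 min, 42.9 and 40.9 at 15 min, 41.6 and 44.3 at 30 min, and 49.9 and 56.1 at 120 min in LSM14A-TRIBE-ID (trend 0.17 per hour, against -0.38 in DDX6-STAMP-ID; difference 0.55 ± 0.05 (SE), adjusted p = 2.52e-06, edgeR). DDIT4 stood at 85.9 and 97.5 RPM at 0 min, 75.4 and 105 at 15 min, 63.3 and 79.6 at 30 min, and 77.6 and 88.4 at 120 min there (difference 0.45 ± 0.11, adjusted p = 0.0172). POU3F2 was higher at 120 min than at 0 min there. DDIT4 was lower at 120 min than in the 0 min library of the same number in both pairs there, and its trend did not pass (-0.04 per hour, adjusted p = 0.694, edgeR). HSPA1B stood at 252 and 173 RPM at 0 min, 310.4 and 222 at 15 min, 214 and 168 at 30 min, and 229 and 186 at 120 min there (difference 0.75 ± 0.17, adjusted p = 0.011), and its first library lay above the second at every time.

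For other genes the difference between the trends did not pass. ZBTB7B, a zinc finger repressor gene, fell in both, with trends of -0.37 per hour here and -0.36 there (difference 0.03 ± 0.08 (SE), adjusted p = 0.867), and NAB2 fell with -0.42 and -0.29 (difference 0.14 ± 0.10, adjusted p = 0.39). Of the genes measured in both, 51 rose in both trends, which is 10.6% of the 480 rising here and 14.5% of the 351 rising there, and 70 fell in both, 11.1% of 630 and 19.1% of 367. In contrast 6 of those rising here fell there and 31 of those falling here rose there.

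**Figure D5:**
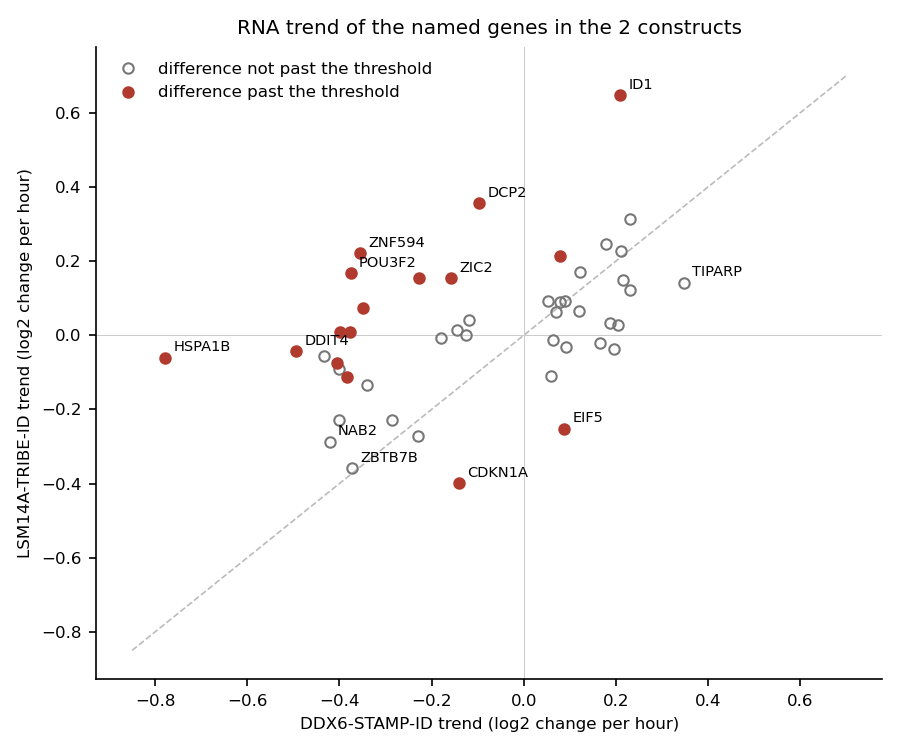
RNA trend (log2 change per hour) of the named trend genes in DDX6-STAMP-ID (x axis) and LSM14A-TRIBE-ID (y axis); each point is 1 gene, red where the difference passed the edgeR interaction test, and the dashed line marks equal trends. The genes were named for their DDX6-STAMP-ID trend, which the interaction test uses again. HSPA1B, DDIT4, POU3F2 and ZNF594 lie far above the line, and CDKN1A and EIF5 below it.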

How the data were processed

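Poly(A) RNA of the 8 DDX6-STAMP-ID libraries was compared, with 8 LSM14A-TRIBE-ID and 4 dual-editor HEK293T libraries for reference. For each gene and library the authors deposited counts of reads and of edited reads, and a score as a fraction, which per the file headers is edited reads over reads. The submitters' processing notes name STAR 2.7.9a, featureCounts 2.0.1, cutadapt 1.18 and FastQC 0.11.9, and the hg38 build. How edited sites were called and filtered is not given in the sources used here, nor is strand use, so a gene and an overlapping antisense gene may share reads. The authors also deposited log2 translation efficiency, 1 value each for DDX6-knockout and for wild-type cells.

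The tables of 15, 30 and 120 min were joined by gene name. The rapamycin arm (6 libraries) was compared with 0 min (2) by the quasi-likelihood test of edgeR 4.0.16 in R 4.3.3, two-sided, with Benjamini-Hochberg adjustment over all genes tested and a threshold of 0.05. Editing was fitted as edited reads with the log of reads as offset, in genes with 10 edited reads in all and no library under 20 reads. RNA level was fitted on reads with TMM scaling. Trends are log2 changes per hour, linear in minutes, and single times came from a fit of 4 groups. Library shares were compared by exact permutation. The depth of 9300929 to 10362458 reads per library gave a median standard error of 0.64 for a log2 change in editing and 0.06 for one in RNA level. The editing and RNA fits between the arms and the RNA trend fit were tested on simulated data. Alternatives were DESeq2 1.42.0, limma 3.58.1 on log2(score + 0.1) or log2(score + 1), total counts, other minimums, a replicate block, summed libraries and left-out libraries. In the LSM14A-TRIBE-ID libraries same-numbered samples deviated together (correlation 0.691 to 0.75 over 6 pairs), so its number entered the trend comparison between constructs as a block.

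Genes are named by a rule: the recruitment and P-body factors; per test the 8 largest changes in each direction among calls with at least 100 reads on average and no overlap between arms, or the 4 lowest p-values where fewer than 4 passed; 2 per list and direction; and the highest scores. Members and lists were chosen with earlier results of these data known.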

Additional observations from a re-analysis of the deposited data

Results flagged for a closer look

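In 16 of 47 genes named for their RNA trend, the trend over minutes differed between LSM14A-TRIBE-ID and DDX6-STAMP-ID by the edgeR interaction test with the replicate block. Over all genes 6.63% of 10325 differed. The 47 were named for their DDX6-STAMP-ID trend, which the test uses again. The naming itself can raise their share, so the count is no independent measure of a difference between the constructs. Values are the LSM14A-TRIBE-ID trend minus the DDX6-STAMP-ID trend, in log2 per hour. Among stress and chaperone genes the difference was above 0 for DDIT4 (0.446, adjusted p = 0.0172), HSPA1B (0.751, adjusted p = 0.011) and DNAJB1 (0.288, adjusted p = 0.0355). Among developmental regulators and signalling genes it was above 0 for PKDCC (0.343, adjusted p = 0.00354), IRX3 (0.417, adjusted p = 0.00387), RGMA (0.397, adjusted p = 0.00308), POU3F2 (0.552, adjusted p = 2.52e-06) and ZIC2 (0.321, adjusted p = 1.78e-05). The zinc finger genes ZNF594 (0.584, adjusted p = 3.55e-05) and ZNF470 (0.429, adjusted p = 0.00689) differed in the same direction. So did TOB1 (0.39, adjusted p = 0.00616) and DCP2 (0.463, adjusted p = 4.02e-05), which act in deadenylation and decapping, ID1 (0.448, adjusted p = 0.0169), an inhibitor of helix-loop-helix factors, and the elongation factor gene EEF2 (0.144, adjusted p = 0.0139). The difference was below 0 for the cell cycle inhibitor gene CDKN1A (-0.244, adjusted p = 0.0412) and for EIF5 (-0.33, adjusted p = 1.26e-05), an initiation factor gene.

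Of 103 sets of 6 rapamycin libraries examined for a library far from the others, 1 was set apart, where chance gives about 1 in 20: the editing score of WARS1 in the first 30 min library, 1.11%, lay above the other 5 by 0.697 of the whole range.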

How the results depend on the processing

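The editing call between the arms was 1 gene; it became 2 with limma on log2(score + 0.1), 0 with log2(score + 1), 6 with no minimum of edited reads, 4 with the libraries of each time summed and 2 without the 120 min libraries. Relative to library-wide editing these were 1, 0, 7, 3 and 2. The editing trend gave 1 call with either limma pseudocount. The difference in share, 0.0431 percentage points over all genes, was 0.1208 in the 500 genes of largest dual-editor difference. The 239 higher and 237 lower RNA calls between the arms became 235 with DESeq2, 0 summed, 1923 as the mean of 3 times in a fit of 4 groups, 1255 without the 120 min libraries and 211 without those of 30 min. The RNA trend calls, 1129, became 599 with DESeq2, 251 summed and 698 without the 120 min libraries, of which 171 were shared. Without those libraries the trends of HSPA1B (0.97), DNAJB1 (0.28), DCP2 (0.0726), EIF4ENIF1 (0.0962), CDKN1A (0.20) and MSMO1 (0.0172) turned to above 0, and those of DGCR8 (-0.33), DNAJB9 (-0.88), PPP1R15A (-0.26), FNIP1 (-0.56), GADD45B (-0.55), ZNF627 (-0.57), ZNF367 (-0.21) and CENPE (-0.30) to below 0 (log2 per hour); the 120 min libraries set the trends of these genes. For other changes the cause was not tested.

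The same-numbered DDX6-STAMP-ID libraries did not deviate together (correlation -0.0209 to 0.0221 over 6 pairs) and so share only a number. With the replicate block the calls were 3 for editing between the arms, 2, 2 and 4 for editing at 15, 30 and 120 min, and 283 for RNA between the arms; for the differences between constructs they were 3 for RNA between the arms and 396 for editing, and 280 for the RNA trend with no block.

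Leaving out 1 library at a time gave 0 to 3 editing calls between the arms, 0 to 2 relative to library-wide editing, 0 to 0 in the trend, and 1 to 2, 0 to 3 and 0 to 3 at 15, 30 and 120 min. For RNA it gave 1 to 538 between the arms, 313 to 1157 in the trend, and 502 to 1011, 595 to 1131 and 1459 to 2388 at the 3 times. For the constructs it gave 0 to 0 and 114 to 1457 for RNA between the arms and in the trend, and 0 to 1784 for editing. The difference in share ran from 0.0352 to 0.0511. With 2 libraries at 0 min, leaving 1 out assumes that the other varies like the rest. Of the values of single genes, 1566 kept their direction and side of the threshold, 241 lost the call, 5 gained it and 14 turned. With a median standard error of 0.64 per gene, log2 editing changes near the library-wide one were not detectable at this depth.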

Other observations

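Some genes of the cytoskeleton and of mitosis rose with rapamycin. Over all genes 2.24% rose and 2.22% fell between the arms. Of 26 tubulin and actin genes 4 rose between the arms and 0 fell: TUBA1B, TUBA1C, TUBB and TUBB4B. TUBA1B, an alpha-tubulin gene, stood at 1508 and 1488 RPM at 0 min, 1578 and 1583 at 15 min, 1636 and 1602 at 30 min, and 1624 and 1615 at 120 min (log2 change 0.12 ± 0.02 (SE), adjusted p = 0.0036, edgeR). Of 28 mitotic factors 4 rose and 0 fell (CCNB1, CCNA2, KIF20A and MKI67; median 0.09), and none of these genes passed with the libraries of each time summed. Of 19 p53 targets 0 passed between the arms, while in the trend PMAIP1 rose and CDKN1A, MDM2, BBC3 and AEN fell (4.57% and 6.02% of all genes). MDM2, the ubiquitin ligase of p53, stood at 237 and 252 RPM at 0 min, 258 and 253 at 15 min, 247 and 258 at 30 min, and 214 and 208 at 120 min (log2 change per hour -0.12 ± 0.02 (SE), adjusted p = 5.77e-04, edgeR). Its 120 min libraries alone lay below those of 0 min.

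CYP1B1, a cytochrome P450 gene of the aryl hydrocarbon receptor pathway like TIPARP, was named after its values were seen. It stood at 6.21 and 7.52 RPM at 0 min, 12.6 and 10.8 at 15 min, 10.2 and 11.8 at 30 min, and 12.4 and 10.1 at 120 min (log2 change 0.74 ± 0.13 (SE), adjusted p = 0.00508, edgeR). Every rapamycin library was above both 0 min libraries, at a low level.

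Across 8332 genes the editing change had a rank correlation of -0.0293 with the RNA change between the arms, 0.0481 with RNA level at 0 min and -0.00084 with the difference in log2 translation efficiency between DDX6-knockout and wild-type cells. Across 10656 genes the RNA trend had a rank correlation of 0.218 with RNA level at 0 min and -0.0388 with wild-type translation efficiency. These values describe genes that share libraries and depth.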
